A study of Mus musculus with 14 samples.

Results

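The genes of 10 voltage-gated calcium channel components were followed in the left ventricles of male mice with a gene trap in Uty. They were taken by symbol from the count table of the series as Cacna1c, Cacna1g, Cacna1h, Cacna1s, Cacnb1, Cacnb2, Cacnb3, Cacna2d1, Cacng6 and Rrad, which are 10 of 47642 annotated genes with counts. UtyGT mice carried the trap Uty Gt(XS0378)Wtsi in an early intron of Uty, a gene of chromosome Y that encodes a paralog of the histone demethylase UTX, and were compared with isogenic wild-type (WT) males whose chromosome Y had the same 129P2/OlaHsd origin on a C57BL/6J background. The trap is constitutive, so that Uty was affected in all cells and from conception, and all mice were 40 days old and otherwise untreated. The paper reports that left ventricles with the trap also had less Ddx3y and more Eif2s3y transcript, from genes beside Uty on chromosome Y. UtyGT therefore names the trapped locus, and the parts of these genes in the differences below cannot be told apart. Each genotype was represented by 7 libraries, 1 for each mouse. The libraries were of the QuantSeq 3′ FWD type, in which a transcript gives reads near its 3′ end. CPM (counts scaled to a fixed library total) were therefore not divided by transcript length. How fully the reads of each gene were counted was not determined, so orders and shares of different genes below are those of counts.

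Voltage-gated calcium channels open when the membrane depolarises and let calcium into the cell. In ventricular cardiomyocytes the L-type channel Cav1.2 carries this current and triggers the release of calcium from the sarcoplasmic reticulum that drives contraction. Its pore is formed by an alpha1 subunit, and cytosolic beta subunits, extracellular alpha2delta subunits and, in some tissues, gamma subunits set its number at the membrane and its gating, while small GTP-binding proteins of the RGK family, including Rad, restrain it through the beta subunit.

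Of the 10 genes, Cacnb2 alone was called higher in UtyGT and Cacnb1 alone was called lower, so that these beta subunit transcripts changed in opposite directions. Neither was called after a correction for GC content, and the call of Cacnb1 was lost in 11 of 27 alternative settings and that of Cacnb2 in that one. Cacnb2, the main beta subunit of cardiomyocytes, rose 1.42-fold (95% interval 1.19 to 1.69), and Cacnb1, the main beta subunit of skeletal muscle, fell to 49.4% of its WT mean. Cacna1c, which encodes the pore of Cav1.2, was measured at 96.1% of WT and was not called. A gene is said to be called where the adjusted p of the edgeR quasi-likelihood test was below 0.05 after Benjamini-Hochberg adjustment over 11563 tested genes. Of all tested genes, 4.7% were called higher and 3.34% lower, or 8.03% in either direction, against 2 of 10 channel genes. All 10 had enough counts to be tested, 4 had an unadjusted p below 0.05 (24.8% of all tested genes), and none had genotypes that did not overlap (2.14%). Their median log2 fold change of UtyGT over WT was -0.08, against 0.01 over all tested genes.

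Both called genes have several annotated starts, and the promoter windows are shown because the 3′ end counts do not tell which start was used. Windows run from 250 bases before to 50 bases after a start (RefSeq, GRCm38.p6) and are written 5′ to 3′ on the strand of the gene. Capitals mark E-boxes (CANNTG, which reads the same on both strands), the motif bound by basic helix-loop-helix factors of muscle and other tissues. The windows of Cacnb2 are chr2:14604056-14604355 and chr2:14823842-14824141, both on the plus strand, and those of Cacnb1 are chr11:98018323-98018622 and chr11:98022578-98022877, both on the minus strand.
Cacnb2, upstream start: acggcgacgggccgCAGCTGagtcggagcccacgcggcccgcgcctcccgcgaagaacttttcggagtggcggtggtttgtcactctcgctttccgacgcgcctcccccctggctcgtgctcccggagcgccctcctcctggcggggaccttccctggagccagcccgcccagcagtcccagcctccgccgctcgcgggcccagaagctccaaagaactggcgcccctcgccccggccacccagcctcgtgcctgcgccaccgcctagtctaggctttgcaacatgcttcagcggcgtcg
Cacnb2, downstream start: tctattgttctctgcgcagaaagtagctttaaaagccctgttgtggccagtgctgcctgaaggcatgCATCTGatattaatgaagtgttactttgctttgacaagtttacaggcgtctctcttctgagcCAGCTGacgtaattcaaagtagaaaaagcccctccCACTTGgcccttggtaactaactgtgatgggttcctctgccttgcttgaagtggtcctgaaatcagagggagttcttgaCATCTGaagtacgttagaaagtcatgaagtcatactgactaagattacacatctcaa
Cacnb1, downstream start: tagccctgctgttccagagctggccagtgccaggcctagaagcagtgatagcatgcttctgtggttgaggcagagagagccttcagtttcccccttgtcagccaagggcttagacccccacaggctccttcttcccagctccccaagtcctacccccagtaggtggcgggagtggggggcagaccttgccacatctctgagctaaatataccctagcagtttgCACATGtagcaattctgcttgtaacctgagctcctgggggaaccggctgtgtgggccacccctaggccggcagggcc
Cacnb1, upstream start: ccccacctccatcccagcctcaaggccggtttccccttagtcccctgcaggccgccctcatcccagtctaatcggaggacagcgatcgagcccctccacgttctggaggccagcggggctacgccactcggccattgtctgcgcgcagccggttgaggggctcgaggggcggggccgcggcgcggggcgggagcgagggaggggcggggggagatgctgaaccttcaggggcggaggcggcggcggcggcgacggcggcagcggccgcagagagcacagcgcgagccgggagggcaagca

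Each gene had 1 window rich in CpG and 1 poor in it. The upstream windows held 35 CpG sites at 71.7% GC in Cacnb2 and 34 at 73.7% in Cacnb1, and the downstream windows held 4 sites at 44% and 3 at 59.3%, against a median of 52.7% GC over 32851 windows of all genes. The downstream window of Cacnb2 held 4 E-boxes, and its upstream window and the downstream window of Cacnb1 held 1 each. The upstream window of Cacnb1 held no E-box but 5 GC boxes (GGGCGG, counted on both strands). At least 1 E-box was found in 72.3% and at least 1 GC box in 35.7% of all windows, with medians of 1 and 0 matches per window. The share of windows with as many as 4 E-boxes or 5 GC boxes was not determined, and a match is no evidence of binding. Windows were found for 7 of the 10 genes, 12 in all, and Cacna1g, Cacna1h and Rrad were not matched.

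Gene counts per library totalled between 6322161 and 9397378 in WT and between 6357485 and 10268706 in UtyGT. Uty itself was counted 47 to 75 times in WT and 1 to 6 times in UtyGT libraries, so that every library matched its label. Markers of ventricular cardiomyocytes were detected in full (8 of 8 tested). WT 4 and UtyGT 6 lay together at one end of the first principal component, which held 45.8% of the variance. The slope of expression on the GC content of transcripts, in log2 units per 10 percentage points, averaged 0.11 in WT libraries (-0.0756 to 0.324) and -0.11 in UtyGT libraries (-0.290 to 0.144), and WT 4 and UtyGT 6 had the steepest positive slopes of their genotypes. Values below are TMM-scaled CPM, as mean ± SD with n = 7 per genotype, and fold changes are log2 of UtyGT over WT ± SE.

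**Figure D1:**
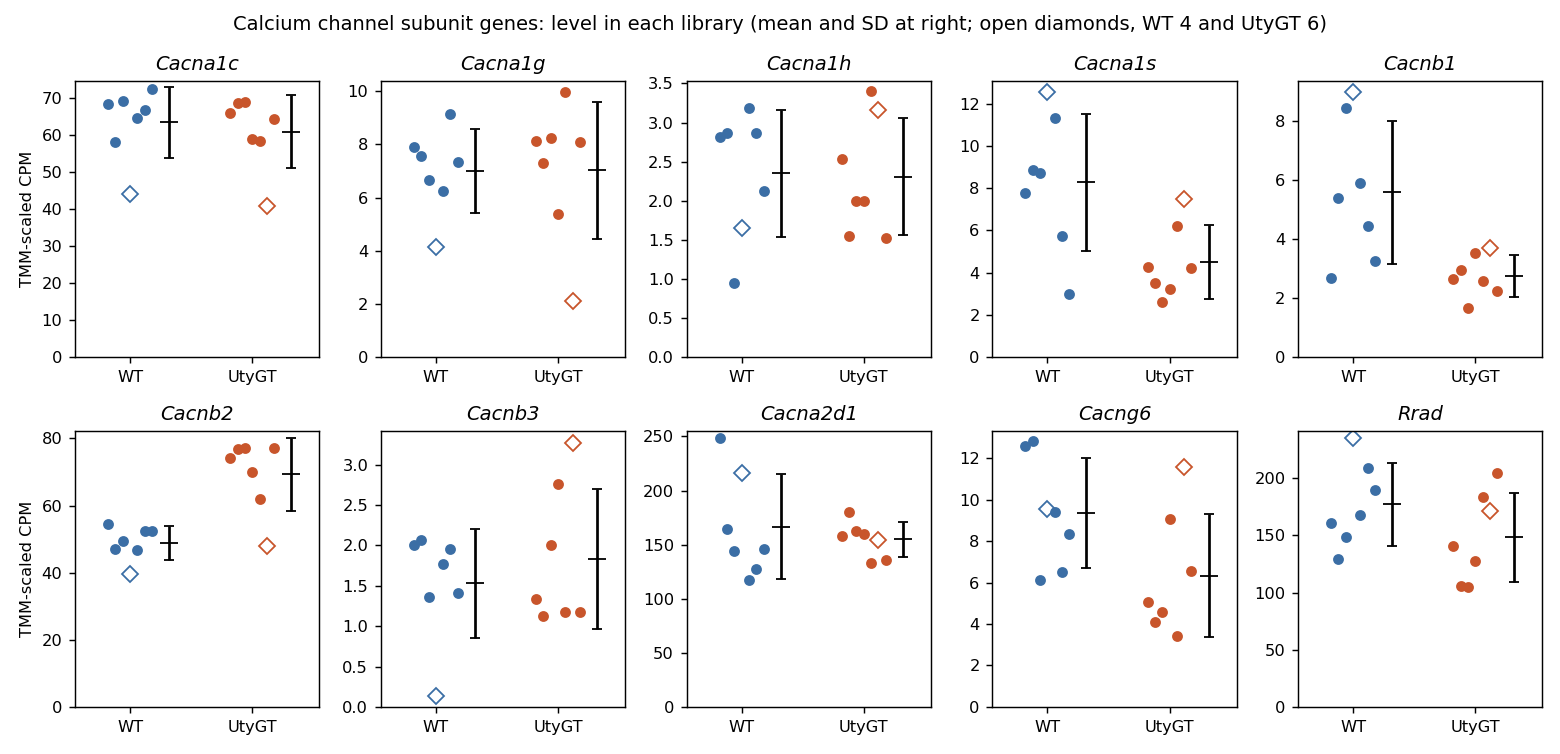
Level of each of the 10 genes in each library (y axis, TMM-scaled CPM, from 0), for WT in blue and UtyGT in orange, with mean and SD in black beside the points; open diamonds are WT 4 and UtyGT 6. For Cacnb2, 6 of 7 UtyGT points lie above all WT points, and for Cacnb1, 4 of 7 lie below all of them.

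The pore-forming alpha1 subunits were taken first. Cacna1c (ENSMUSG00000051331, chromosome 6, 118587240 to 119196418, minus strand) was measured in the WT libraries 1 to 7 at 68.3, 58.2, 69.3, 44.2, 64.6, 66.8 and 72.5 CPM. In the UtyGT libraries it was at 66.0, 68.8, 69.0, 59.0, 58.5, 40.8 and 64.5 CPM. The genotypes overlapped over nearly their whole range, and the lowest value of each was that of WT 4 and of UtyGT 6. The means were 63.4 ± 9.58 and 60.9 ± 9.82 CPM, and the log2 fold change was -0.06 ± 0.13 with a 95% interval of -0.34 to 0.22 (adjusted p = 0.830). The interval in folds, 0.791 to 1.17, is the range of differences that these libraries leave possible for the Cav1.2 pore transcript.

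Cacna1s, which encodes the pore of Cav1.1, the voltage sensor of skeletal muscle (ENSMUSG00000026407, chromosome 1, 136052750 to 136119822, plus strand), was far less abundant. WT libraries had 7.76, 8.84, 8.71, 12.6, 11.3, 5.74 and 2.97 CPM. UtyGT libraries had 4.26, 3.52, 2.59, 3.22, 6.23, 7.47 and 4.21 CPM. All 7 UtyGT libraries lay below the WT median, yet the lowest WT library, WT 7, lay within the UtyGT range. The means were 8.27 ± 3.24 and 4.50 ± 1.74 CPM, with a log2 fold change of -0.87 ± 0.29 that was not called (unadjusted p = 0.00731 and adjusted p = 0.0712, edgeR). It was called lower by DESeq2 (adjusted p = 0.0320), with a surrogate variable in the model (0.00727), without WT 7 (0.0189), without UtyGT 6 (0.0147) and without both WT 4 and UtyGT 6 (0.0321), settings that called 5.87%, 10.8%, 4.81%, 11.4% and 7.21% of all tested genes lower. The adjusted p ranged from 0.00727 to 0.151 over 27 alternatives.

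The T-type pores Cacna1g (Cav3.1, ENSMUSG00000020866, chromosome 11, 94408391 to 94474198, minus strand) and Cacna1h (Cav3.2, ENSMUSG00000024112, chromosome 17, 25374285 to 25433783, minus strand) belong to channels that open near the resting potential, are prominent in fetal ventricle and remain in pacemaker and conduction tissue of the adult. Cacna1g averaged 7.00 ± 1.56 CPM in WT mice and 7.03 ± 2.57 CPM in UtyGT mice. UtyGT 6 was lowest, at 2.10 CPM, and WT 4 was the lowest WT library, at 4.14 CPM. Cacna1h was measured at 2.35 ± 0.809 and 2.31 ± 0.749 CPM, from 7 to 30 counts per library. Neither was called (log2 fold changes 0.00 ± 0.26 and -0.03 ± 0.28, adjusted p = 0.994 and 0.968), and their directions changed with the settings used. Their 95% intervals ran from 0.689-fold to 1.46-fold for Cacna1g and from 0.655-fold to 1.47-fold for Cacna1h. Reads of Tpsg1, on the opposite strand over the 3′ end of Cacna1h, came to 6 counts in all against 261 of Cacna1h, and whether counting used strand was not settled by the sources.

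Cacna1c gave 74.3% ± 4.49 of all alpha1 counts in WT and 76.4% ± 4.87 in UtyGT. The share of Cacna1s was 10.1% ± 5.03 in WT and 5.96% ± 3.28 in UtyGT, and that of the T-type pores together had a median of 10.7% (8.41% to 13.6%) and 11.8% (8.96% to 16.1%). These shares overlapped between genotypes and are given without a test.

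The beta subunits bind the intracellular loop between the first repeats of the alpha1 subunit and bring the channel to the membrane. Cacnb2 (ENSMUSG00000057914, chromosome 2, 14603088 to 14987908, plus strand) was measured in WT libraries at 54.6, 46.9, 49.5, 39.5, 46.8, 52.3 and 52.3 CPM. In UtyGT libraries it was at 74.2, 76.8, 77.2, 70.1, 62.0, 47.9 and 77.0 CPM. All UtyGT libraries but UtyGT 6 lay above all WT libraries. The means were 48.8 ± 5.04 and 69.3 ± 10.9 CPM, with a log2 fold change of 0.50 ± 0.12 (adjusted p = 0.0186, edgeR). It remained called in 26 of 27 alternatives, including the omission of each library in turn (14 of 14, adjusted p 0.00235 to 0.0488). The exception was the correction for GC content, with a log2 fold change of 0.32 (adjusted p = 0.0544).

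Cacnb1 (ENSMUSG00000020882, chromosome 11, 98001508 to 98023034, minus strand) was counted 20 to 65 times per WT library and 14 to 35 times in UtyGT. WT libraries were at 2.67, 5.39, 8.44, 8.98, 5.89, 4.43 and 3.25 CPM. UtyGT libraries were at 2.66, 2.95, 1.65, 3.53, 2.58, 3.68 and 2.22 CPM. UtyGT values were close together and all below the WT median, with 4 of 7 below all WT libraries, whereas WT values ran from 2.67 to 8.98 CPM. The means were 5.58 ± 2.42 and 2.75 ± 0.712 CPM, for a log2 fold change of -1.02 ± 0.27 with a 95% interval of -1.59 to -0.44 (adjusted p = 0.0313, edgeR). The call was kept in 16 of 27 alternatives and in 6 of 14 omissions of a library. It was lost with limma voom (adjusted p = 0.0541), with the correction for GC content (0.0764, log2 fold change -0.74) or 3′ GC content (0.0928, log2 fold change -0.64), and without any 1 of WT 2 (0.0507), WT 3 (0.0743), WT 4 (0.0709), WT 5 (0.0602), UtyGT 1 (0.0624), UtyGT 2 (0.0524), UtyGT 3 (0.0706) or UtyGT 7 (0.0700), with the direction unchanged throughout. Without these libraries in turn, its log2 fold change ran from -1.03 to -0.88, and 1.25% to 2.1% of all tested genes were called lower. That share was 3.34% in the edgeR fit, 3.35% with limma voom, 2.14% with the GC and 2.52% with the 3′ GC correction.

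Cacnb3, a beta subunit of brain and smooth muscle (ENSMUSG00000003352, chromosome 15, 98632220 to 98644530, plus strand), was the least abundant of the 10, with 1.53 ± 0.675 CPM in WT mice and 1.83 ± 0.871 CPM in UtyGT mice. WT 4 had a single count. Its log2 fold change of 0.25 ± 0.38 was not called (adjusted p = 0.721) and had a 95% interval of -0.55 to 1.05. Cacnb4, the remaining beta subunit gene, was at 2.73 ± 0.479 and 3.41 ± 1.38 CPM and was not called (adjusted p = 0.458). A430018G15Rik, on the opposite strand, covers the 3′ end of Cacnb4 with 135 counts in all against 335 of Cacnb4. Whether counting used strand was not settled, so the level of Cacnb4 is less certain.

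The 4 beta subunit genes summed to 58.7 ± 3.89 CPM in WT mice and 77.3 ± 9.82 CPM in UtyGT mice, and 6 of 7 UtyGT libraries exceeded all WT libraries in this sum. Cacnb2 supplied 83.1% ± 4.30 of beta subunit counts in WT and 89.3% ± 4.12 in UtyGT. Cacnb1 supplied 9.68% ± 4.63 and 3.69% ± 1.39, and 6 of 7 UtyGT libraries lay below all WT libraries in this share. In all 14 libraries Cacnb2 was the dominant beta transcript, with at least 76.9% of the counts.

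**Figure D2:**
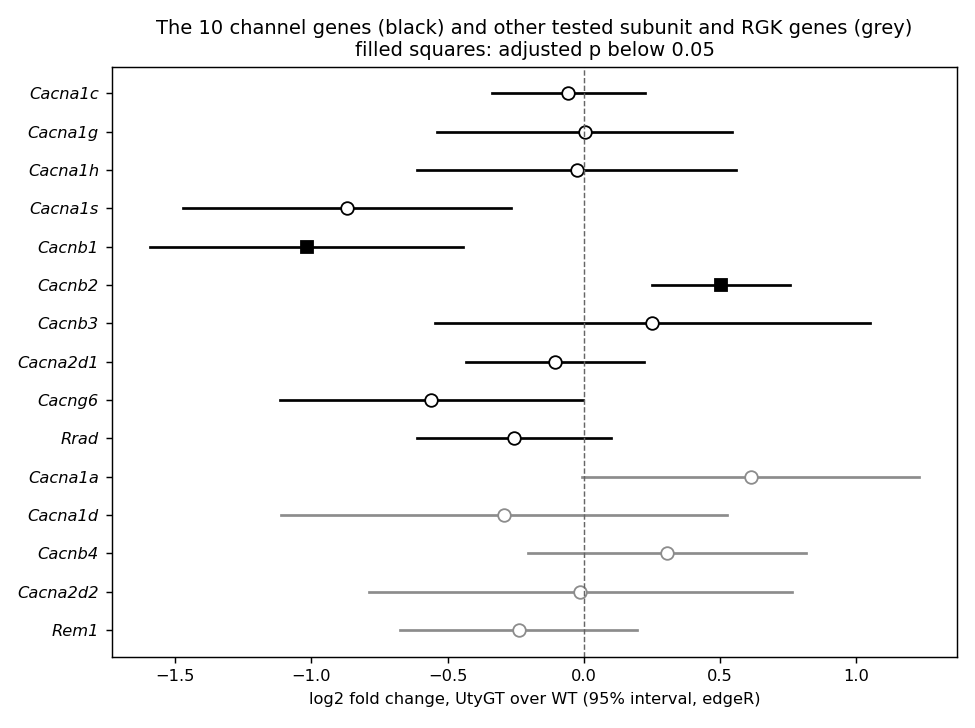
Log2 fold changes of UtyGT over WT (x axis) with 95% intervals from edgeR for the 10 genes in black and for other tested subunit and RGK genes in grey. Filled squares mark an adjusted p below 0.05, which Cacnb1 (-1.02) and Cacnb2 (0.50) reached.

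Because the beta subunit acts as a partner of the pore, Cacnb2 was also expressed per Cacna1c count, a ratio in which the scaling of libraries cancels. The ratio in WT libraries was 0.798, 0.807, 0.715, 0.894, 0.724, 0.783 and 0.721. In UtyGT libraries it was 1.12, 1.12, 1.12, 1.19, 1.06, 1.17 and 1.19. Every UtyGT library lay above every WT library, and UtyGT 6, which was within the WT range for Cacnb2 itself, had a ratio of 1.17. The means were 0.778 ± 0.0642 and 1.14 ± 0.0479. Of the 11562 tested genes other than Cacna1c, 1.84% were higher in UtyGT per Cacna1c count with no overlap between genotypes, and 0.0259% were lower. The ratio was examined after the levels of both genes were known and carries no test.

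Among WT libraries, WT 4, with the steepest GC slope (0.324), had the highest ratio, and WT 3, with the next steepest (0.192), had the lowest. In UtyGT, the highest ratio was that of UtyGT 7 (slope -0.194), and UtyGT 3 (-0.290) and UtyGT 6 (0.144), at the ends of the range of slopes, had ratios of 1.12 and 1.17. Between genotypes the mean slopes were 0.11 in WT and -0.11 in UtyGT, and Cacnb2 and Cacna1c had 39.0% and 50.3% GC. With the correction for GC content, the log2 fold changes of Cacnb2 and Cacna1c were 0.32 and -0.06, against 0.50 and -0.06 without it. The part of GC content in the ratio was not tested.

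**Figure D3:**
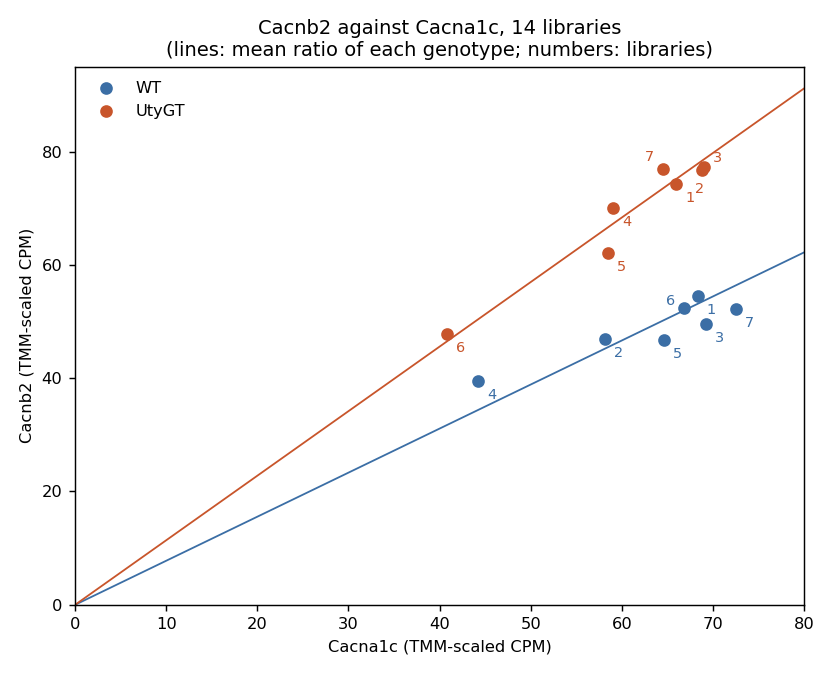
Cacnb2 level (y axis, TMM-scaled CPM) against Cacna1c level (x axis, same unit) in the 14 libraries, numbered within WT (blue) and UtyGT (orange), with lines through the origin at the mean ratio of each genotype, 0.778 and 1.14. UtyGT 6 and WT 4 have the lowest levels of both genes within their genotypes, with ratios of 1.17 and 0.894.

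Within genotypes, levels of Cacna1c and Cacnb2 went up and down together over the 14 libraries (Pearson r = 0.94 of log2 CPM after subtraction of genotype means). Cacna1g went with both, at r = 0.82 with Cacna1c and 0.81 with Cacnb2. Cacna1s and Cacnb1 were related to each other at r = 0.61 and went against Cacnb2, at -0.71 and -0.61. Over the 45 pairs of the 10 genes the median r was -0.15, and 4 pairs were above 0.5 and 7 below -0.5. These values describe libraries that also differed in GC slope, and WT 4 and UtyGT 6 had the lowest levels of Cacna1c, Cacnb2 and Cacna1g in their genotypes. Over the 12 libraries without these, r was 0.77 for Cacna1c with Cacnb2, 0.07 for Cacna1c with Cacna1g and 0.02 for Cacna1g with Cacnb2, so that the relations of Cacna1g rested on the pair left out. It was 0.47 for Cacna1s with Cacnb1 and -0.60 for Cacna1s with Cacnb2. Over all 14 libraries, the transcripts most like Cacna1c by this measure were 3110002H16Rik (r = 0.956), Med6 (0.949) and Rps6ka3 (0.949). Those most like Cacnb2 were Gm15800 (0.959), Atf2 (0.953) and Fmr1 (0.947). Those most like Cacnb1 were Rdh5 (0.903), Acad12 (0.890) and Slc25a45 (0.887), and none of these 9 was called. How common values of r this high are among all tested genes was not determined.

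The alpha2delta subunit is an extracellular protein that promotes the surface expression of the channel. Cacna2d1 (ENSMUSG00000040118, chromosome 5, 15934691 to 16374511, plus strand) was among the most abundant of the 10 transcripts, at 249, 165, 144, 217, 118, 127 and 146 CPM in WT libraries. UtyGT libraries were at 158, 180, 163, 160, 133, 154 and 136 CPM, all inside the WT range. The means were 167 ± 48.5 and 155 ± 16.2 CPM, with a log2 fold change of -0.10 ± 0.16 that was not called (adjusted p = 0.718). There were 2.74 ± 1.15 counts of Cacna2d1 per Cacna1c count in WT and 2.61 ± 0.554 in UtyGT. Cacna2d2, another alpha2delta gene, was at 5.99 ± 3.84 and 5.90 ± 3.61 CPM and was not called (adjusted p = 0.988).

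Cacng6, a gamma subunit gene expressed in striated muscle (ENSMUSG00000078815, chromosome 7, 3424195 to 3435667, plus strand), had 12.6, 12.9, 6.12, 9.53, 9.43, 6.52 and 8.34 CPM in WT libraries. UtyGT libraries had 5.06, 4.08, 4.59, 9.05, 3.41, 11.6 and 6.55 CPM. Of these, 4 lay below all WT libraries, and UtyGT 6 was the highest of its genotype. The means were 9.34 ± 2.65 and 6.33 ± 2.98 CPM, with a log2 fold change of -0.56 ± 0.26 that was not called (unadjusted p = 0.0485 and adjusted p = 0.198, edgeR). It was called lower without UtyGT 6 (adjusted p = 0.0243) and without both WT 4 and UtyGT 6 (0.0401), in a range of 0.0243 to 0.329 over 27 alternatives. Those 2 settings called 11.4% and 7.21% of all tested genes lower.

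Rrad, encoding the RGK protein Rad, which holds back Cav1.2 until it is phosphorylated under beta-adrenergic stimulation (ENSMUSG00000031880, chromosome 8, 104628070 to 104631327, minus strand), was at 160, 129, 149, 235, 168, 209 and 190 CPM in WT libraries. UtyGT libraries were at 141, 105, 105, 128, 184, 171 and 204 CPM. The genotypes overlapped, with 3 UtyGT libraries below all WT libraries. The means were 177 ± 36.5 and 148 ± 39.0 CPM, and it was not called (log2 fold change -0.26 ± 0.17, 95% interval -0.61 to 0.10, adjusted p = 0.365). With the correction for GC content the log2 fold change was -0.04. Of the other RGK genes, Rem1 was at 3.28 ± 0.589 and 2.77 ± 0.709 CPM and not called (adjusted p = 0.506), Gem had 22 and 46 counts in all, too few for the test, and no read of Rem2 was counted (0 counts, for which the limit over the 14 libraries together is 0.0270 CPM).

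Among the other 17 subunit genes, 4 were tested and none was called. Besides Cacnb4 and Cacna2d2 they were Cacna1a, the P/Q-type pore (1.85 ± 0.701 and 2.87 ± 1.12 CPM, log2 fold change 0.61, adjusted p = 0.206), and Cacna1d, the Cav1.3 pore of pacemaker cells (1.87 ± 1.07 and 1.51 ± 0.733 CPM, log2 fold change -0.29, adjusted p = 0.683). None of the 4 had an unadjusted p below 0.05 in edgeR or was called by DESeq2 or limma voom. Chdh, on the opposite strand, covers the 3′ end of Cacna1d with 7 counts in all. Cacna1f, Cacng2, Cacng3 and Cacng8 had 0 counts in all libraries, and the remaining 9 had too few for the test.

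In order of WT mean, Rrad (177 CPM) and Cacna2d1 (167 CPM) were the most abundant of the 10 and differed by less than their SD. They were followed by Cacna1c (63.4 CPM) and Cacnb2 (48.8 CPM). Cacng6 (9.34 CPM), Cacna1s (8.27 CPM), Cacna1g (7.00 CPM) and Cacnb1 (5.58 CPM) formed a lower group within 1 SD of their neighbours in this order, and Cacna1h (2.35 CPM) and Cacnb3 (1.53 CPM), whose libraries overlapped, came last. In UtyGT, Cacnb2 (69.3 CPM) stood above Cacna1c (60.9 CPM).

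Cacna1s and Cacnb1 are best known from skeletal muscle, and Cacng6 is expressed in striated muscle. These genes had lower means in UtyGT, although only Cacnb1 was called. Of 12 markers of skeletal muscle, 3 could be tested and none was called by edgeR, DESeq2 or limma voom, or had an unadjusted p below 0.05, namely Mybpc2 (635 and 556 counts in all), Tnni2 (330 and 297) and Myl1 (894 and 723). The log2 fold changes of these 3 were -0.23, -0.24 and -0.36. Each of the 12 markers had a lower mean CPM in UtyGT, but those not tested had too few counts to show a direction. Among them, Myh1 had 1 count in each genotype and Tnnt3 had 16 and 15. The sum of the 12 markers lay between 27.3 and 48.9 CPM in WT (mean 39.6) and between 23.1 and 41.5 CPM in UtyGT (mean 31.5). The fast myosins Myh1, Myh2 and Myh4 had 2 counts or fewer in either genotype over all libraries. Of 8 smooth muscle and pericyte markers, which share Cav1.2 with cardiomyocytes, all were tested and none was called by edgeR (4 at an unadjusted p below 0.05, 2 with DESeq2, 0 with limma voom), with sums of 1303 to 1735 and 1252 to 1965 CPM. Of 8 endothelial markers 2 were called lower by edgeR and 3 by DESeq2 and limma voom. Of 8 cardiomyocyte markers 1, Ryr2, was called higher by all of these, and Myl3 was called lower by DESeq2 alone (log2 fold change -0.61, edgeR adjusted p = 0.0979), with sums of 55964 to 110522 and 56942 to 102325 CPM. Of 5 red cell markers 2 were called lower, Hba-a1 (log2 fold change -1.14, adjusted p = 0.0220) and Hba-a2 (-1.09, adjusted p = 0.0305), with sums of 3192 to 6874 CPM in WT and 1071 to 5117 CPM in UtyGT. The part of these cells in the levels of the 10 genes was not tested, and in tissue RNA fewer cells of a type and less RNA per cell cannot be told apart.

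The GC content of transcripts went with fold changes over all genes. Median log2 fold changes fell along bins of GC content from 0.25 at 30 to 35% GC to -0.31 at 65 to 70%, and the median GC content was 44.5% among genes called higher and 55.3% among genes called lower. Cacnb2 had 39.0% GC and Cacnb1 59.7%, on the sides of this trend that go with their directions. The median of genes at 35 to 40% GC was 0.17, against 0.50 for Cacnb2, and that of genes at 55 to 60% GC was -0.19, against -1.02 for Cacnb1. Cacna2d1, with 40.7% GC, was at -0.10 where the median of its bin was 0.17. Cacnb3, with 61.3% GC, was at 0.25 where the median was -0.30, and Cacna1h and Cacna1g, with 60.0% and 58.1% GC, were at -0.03 and 0.00 where it was -0.19. Over the last 500 nt, Cacna1h and Cacna1g had 51.6% and 34.2% GC, and with the 3′ GC correction they were at 0.097 and -0.16. Rrad, with 58.4% GC, was at -0.26 where the median was -0.19. Cacna1c, Cacna1s and Cacng6, with 50.3%, 54.1% and 53.1% GC, were at -0.06, -0.87 and -0.56 where it was -0.05.

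**Figure D4:**
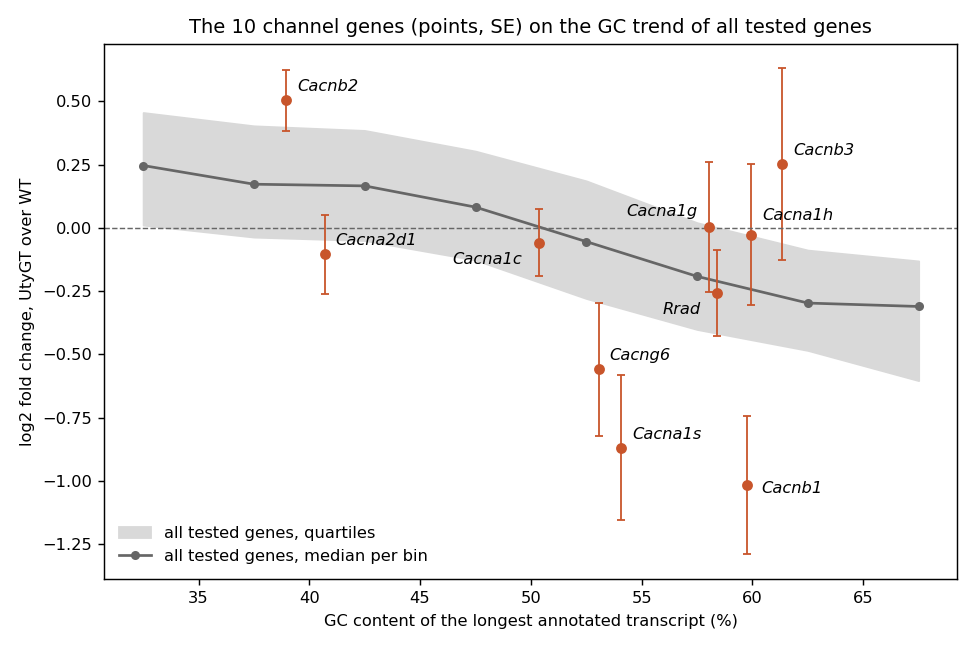
Log2 fold change of UtyGT over WT (y axis) against GC content of the longest annotated transcript in percent (x axis); orange points are the 10 genes with SE, and the grey line and band are the median and quartiles of all tested genes in bins of 5 percentage points. Cacnb2 and Cacnb3 lie above the band at their GC content, Cacna1h lies at its upper edge, and Cacnb1, Cacna1s, Cacng6 and Cacna2d1 lie below it.

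Proteins that bind or regulate the channel were measured beside it. Of 16 genes of channel partners 13 were tested, and 1 was called higher and none lower by edgeR. At an unadjusted p below 0.05 these were 4 and 2, with DESeq2 2 and 2, and with limma voom 1 and 0. Over all tested genes, edgeR called 4.7% higher and 3.34% lower, DESeq2 6.3% and 5.87%, and limma voom 4.55% and 3.35%. An unadjusted p below 0.05 was found for 24.8% in either direction. These shares also go with the cell markers above and the lists below. Ahnak, a giant scaffold protein that binds the beta2 subunit, rose from 297 ± 28.5 to 446 ± 71.2 CPM, by 0.59 ± 0.12 on the log2 scale (adjusted p = 0.00906). It stayed called in all 27 alternatives, including the correction for GC content. The median log2 fold change of the 13 genes was -0.06.

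Of 8 genes of sarcoplasmic reticulum calcium cycling, all tested, 2 were called higher and none lower by edgeR, with the same numbers at an unadjusted p below 0.05 and with DESeq2 and limma voom. Ryr2, the release channel that Cav1.2 opens, rose from 596 ± 55.6 to 801 ± 127 CPM, by 0.42 ± 0.12 on the log2 scale (adjusted p = 0.0347), and was called in 14 of 27 alternatives. Trdn, its anchoring partner triadin, rose from 259 ± 43.3 to 402 ± 119 CPM, by 0.63 ± 0.17 on the log2 scale (adjusted p = 0.0308), and was called in 17 of 27. With 1 library left out, Ryr2 was called in 5 of 14 cases (adjusted p 0.0168 to 0.0747) and Trdn in 6 of 14 (0.00528 to 0.0713). In these 14 fits 2.36% to 7.87% of all tested genes were called higher, against 4.7% with all libraries. The corrections for GC content and for 3′ GC content ended both calls, at 0.0555 and 0.189 for Ryr2 and 0.0521 and 0.0506 for Trdn. The correction for length (0.159) and the omission of the filter (0.0785) also ended that of Ryr2.

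In the fetal ventricular channel program, 6 of 7 genes were tested, and 1 was called higher and none lower by edgeR. At an unadjusted p below 0.05 and with DESeq2, 1 was higher and 1, Hcn2, was lower. Rest, encoding the repressor that keeps fetal genes such as Cacna1h and Hcn2 silent in the adult ventricle, rose from 22.4 ± 4.28 to 36.7 ± 5.53 CPM with no overlap (log2 fold change 0.71 ± 0.14, adjusted p = 0.00784). It was called in 26 of 27 alternatives, and the correction for 3′ GC content ended the call (adjusted p = 0.0536). The level of Cacna1h, given above, did not pass the test.

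**Figure D5:**
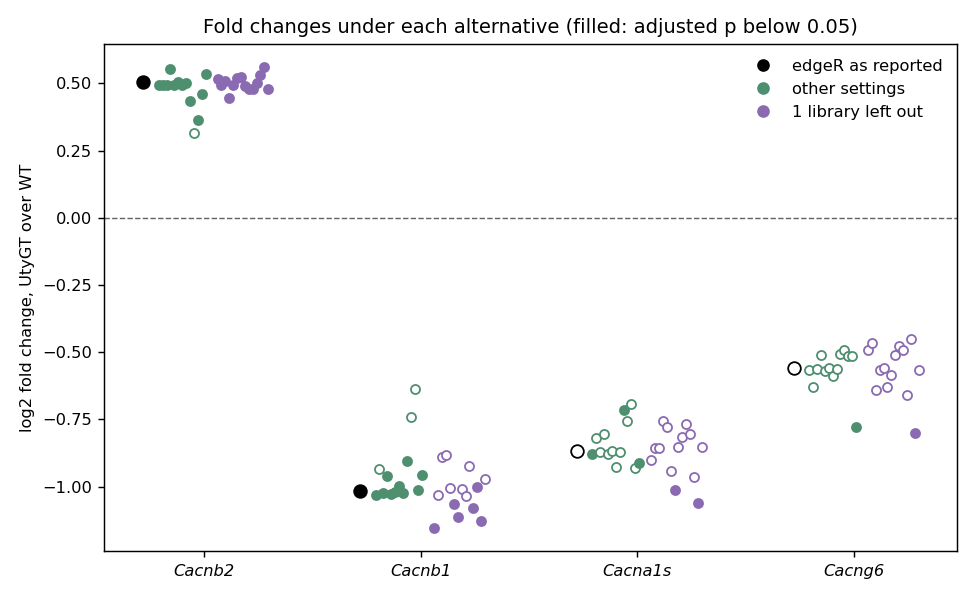
Log2 fold changes of UtyGT over WT (y axis) of Cacnb2, Cacnb1, Cacna1s and Cacng6 in the edgeR fit reported here (black), under other settings (green) and with 1 library left out (purple); filled points have an adjusted p below 0.05. Each gene keeps its direction throughout, and Cacnb2 is called in 26 of 27 alternatives.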

How the data were processed

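RNA of 14 left ventricles, 7 WT and 7 UtyGT, was measured in QuantSeq 3′ FWD libraries, assigned to genotypes by the sample labels. According to the study's methods, the authors aligned reads to GRCm38/mm10, and featureCounts 1.6.0 gave the deposited counts for each gene, and STAR, FastQC, CASAVA 1.4 and DESeq2 1.22.2 stand in the submitters' processing notes. The 5 entries naming no gene took 45.9% to 49.1% of reads and were left out, as were 4984 entries without counts. These entries look like output of htseq-count, and which counter and strand setting were used remains unclear. The deposited mean level is a signal, the authors' mean of size-factor-scaled counts over libraries. The deposited log2 fold changes and standard errors, the deposited test statistic (a score) and the deposited p-values are the authors' own comparison and were not used.

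Genotypes were compared on these counts by edgeR 4.0.16 in R 4.3.3 (filterByExpr with a minimum count of 10, TMM scaling, robust quasi-likelihood F test with genotype as the only term, Benjamini-Hochberg adjustment over 11563 genes, threshold 0.05). The biological coefficient of variation was 26.2%. Scripts were tested on simulated data. Pairs of libraries within genotypes (42) had chi-square values per gene between 8.29 and 176, far above sampling noise. That excess cannot show that libraries came from separate mice. Each library was counted as its own sample because each sample has its own title. Alternatives were DESeq2 1.42.0, voom of limma 3.58.1, RLE scaling, no composition scaling, no filter, a filter at 1 CPM, counts thinned to 6322161, exclusion of the 10 top genes and of mitochondrially encoded ones, 1 surrogate variable (sva 3.50.0), lowess corrections for GC content, GC content of the last 500 nt and length, and leaving out each library, or WT 4 and UtyGT 6 together.

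The 10 genes, the other lists, the markers and the alternatives were chosen with earlier results of these data known. Named genes were the 10, every tested subunit or RGK gene, every called gene of the partner, calcium cycling and fetal lists, and the 3 transcripts most correlated with Cacna1c and with each called gene. Some results that this rule names are not reported here. Other genes, named for context, were chosen after their values were seen. GC content and length came from GENCODE M21 (47223 of 47642 genes matched, 99.1%), coordinates from the deposited table, and promoters from RefSeq. No source used here names molecular identifiers, and the floor of 3 counts covers counting error only.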

Additional observations from a re-analysis of the deposited data

Results flagged for a closer look

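In groups of 7 libraries, single values were compared with the rest of their genotype by Dixon's criterion (0.568 for 7 values), over 40 groups, of which chance flags about 1 in 20. The lowest Cacna1c level in UtyGT, 40.8 CPM in UtyGT 6, stood apart from the next lowest, 58.5 CPM. The lowest Cacnb3 level in WT, 0.138 CPM in WT 4, rested on a single count, and the next lowest was 1.36 CPM. Cacna2d2 had a high value in each genotype, 14.2 CPM in WT 1 and 13.6 CPM in UtyGT 6, with the next highest at 6.77 and 6.75 CPM. Ahnak was lowest among WT libraries in WT 4, at 233 CPM against 297 CPM for the next. UtyGT 3 had the highest Trdn level in UtyGT, 643 CPM against 421 CPM for the next. Of these 6 values, 4 came from WT 4 or UtyGT 6.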

How the results depend on the processing

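Cacnb2 was the gene called higher in every setting except the correction for GC content, which gave 0 of the 10 genes called higher. That correction called 2.67% of all tested genes higher, against 4.7% in the edgeR fit. The number of the 10 called lower was 1 in the edgeR fit, 2 with DESeq2 and 2 with surrogate variables, 0 with limma voom, 0 with the correction for GC content and 0 with that for 3′ GC content, 3 without WT 4 and UtyGT 6, and 0 to 3 when single libraries were left out. Of all tested genes, 3.34% were called lower by edgeR, 5.87% by DESeq2, 10.8% with surrogate variables and 3.35% with limma voom. The share was 2.14% with the correction for GC content, 2.52% with that for 3′ GC content and 7.21% without WT 4 and UtyGT 6. It ran from 1.25% to 11.4% when single libraries were left out. Directions turned only for genes that were called under no setting. Cacna1g was at -0.0078 with DESeq2, -0.11 with voom, -0.0069 with RLE scaling, -0.0038 without a filter, -0.0033 with thinned counts, -0.0011 without dominant transcripts, -0.15 with surrogate variables, -0.16 with 3′ GC and -0.10 with length correction. Cacna1h was at 0.0025 with voom, 0.0093 without composition scaling, 0.21 with GC and 0.097 with 3′ GC correction. Cacnb3 was at -0.16 without WT 4 and UtyGT 6. Cacna2d2 was at 0.017 with voom, 0.052 without composition scaling, 0.060 with thinned counts, 0.11 with surrogate variables and 0.13 with GC correction. With single libraries left out, log2 fold changes ran from -0.14 to 0.0031 for Cacna1c, -0.11 to 0.15 for Cacna1g, -0.16 to 0.062 for Cacna1h, -0.17 to 0.0031 for Cacna2d1 and -0.39 to 0.34 for Cacna2d2. The cause of these changes was not tested. Of the other values of single genes, 450 kept direction and side of the threshold, 36 lost the call and 7 gained it. No paired analysis was possible because the labels give the mice no replicate numbers shared between genotypes, and the numbers of the libraries only name them. Sample titles fall into a lower and a higher number series in both genotypes, which could mark cohorts, but the columns of counts do not show which mouse each is, so that a cohort term could not be fitted and its part was not tested. WT 6 and WT 7 lay apart from the other WT libraries on the first principal component (24.6 and 33.2, against -59.1 to -11.1) and differed least of all pairs.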
